A study of Mus musculus with 6 samples.

Results

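The Nr4a family consists of 3 orphan nuclear receptor genes, Nr4a1, Nr4a2 and Nr4a3, and its RNA was followed here in pancreatic islets of 30-day-old male mice. The members are the 10 probe sets that the platform annotation assigns to one of these symbols alone, out of 45037 non-control probe sets; the array names 18193 genes in all. Nr4a1 has 1 probe set, Nr4a2 has 6 and Nr4a3 has 3. The mice were wild-type animals of the outbred OF-1 stock whose mothers had received, from gestation day 9 to day 16, vehicle, bisphenol-A at 10 µg/kg/day or bisphenol-A at 100 µg/kg/day. Bisphenol-A is a plastics monomer with estrogen-like activity. The 3 groups, called vehicle, BPA10 and BPA100, have 2 arrays each. Vehicle replicate 1 carried RNA of 5 mice and replicate 2 of 1 mouse, BPA10 replicate 1 carried RNA of 1 mouse and replicate 2 of 2 mice, and each BPA100 array carried RNA of 1 mouse. The labels do not say which mice shared a litter, so each p-value reflects array-to-array spread alone.

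Nr4a receptors bind DNA as monomers, as dimers, or as partners of retinoid X receptors, and they are called orphan receptors because no hormone is firmly established as their ligand. Their activity is set largely by how much of each protein is made. The genes are transcribed within minutes of a stimulus, such as a rise in cyclic AMP or calcium, through the transcription factors CREB and MEF2, and their transcripts are short-lived. In beta cells, the insulin-producing cells of the islet, Nr4a1 and Nr4a3 have been reported to act below the transcription factor Nkx6-1 in cell division, and Nr4a2 is best known for its role in dopamine neurons.

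The promoters are shown because the 3 genes share a short sequence there that binds CREB. CREB recognises the site TGACGTCA and, more weakly, the shorter sites TGACG and CGTCA, which are one site (the CRE core site) read on either strand. The 250 bases before the start of each gene, from RefSeq in the build GRCm38.p6, are printed 5′ to 3′ on the gene's own strand, with every CRE core site in capitals. They lie at chr15:101266596-101266845 on the plus strand for Nr4a1, chr2:57124004-57124253 on the minus strand for Nr4a2, and chr4:48045055-48045304 on the plus strand for Nr4a3.

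Nr4a1: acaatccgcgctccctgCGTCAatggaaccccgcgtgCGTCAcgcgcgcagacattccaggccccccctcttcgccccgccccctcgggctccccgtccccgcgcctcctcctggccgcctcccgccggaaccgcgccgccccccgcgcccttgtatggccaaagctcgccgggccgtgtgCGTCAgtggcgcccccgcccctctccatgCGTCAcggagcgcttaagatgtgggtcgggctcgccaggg
Nr4a2: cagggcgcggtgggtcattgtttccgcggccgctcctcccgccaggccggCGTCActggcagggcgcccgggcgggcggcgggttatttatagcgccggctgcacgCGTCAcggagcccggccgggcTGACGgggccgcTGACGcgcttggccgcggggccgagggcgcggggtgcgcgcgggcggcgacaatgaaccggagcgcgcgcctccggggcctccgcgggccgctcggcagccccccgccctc
Nr4a3: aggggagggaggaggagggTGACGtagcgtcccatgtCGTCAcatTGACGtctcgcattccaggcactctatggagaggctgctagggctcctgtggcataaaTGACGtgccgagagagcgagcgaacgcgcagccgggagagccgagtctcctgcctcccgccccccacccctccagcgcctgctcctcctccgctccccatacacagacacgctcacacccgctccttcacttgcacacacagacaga

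Each of the 3 promoters held 4 CRE core sites. Over all 32851 promoters of this length, 17.8% held at least 1 CRE core site and 45 of them, or 0.137%, held 4 or more. Among the 6582 promoters at least as rich in G and C as that of Nr4a3, the least rich of the 3 at 63.6%, the shares were 28.0% and 0.380%. The cut at 4 equals the count in the members, so these shares are descriptive and no test. The CRE core sites of Nr4a1 begin 233, 213, 69 and 40 bases before the start, those of Nr4a2 at 200, 144, 123 and 111 bases, and those of Nr4a3 at 231, 213, 205 and 147 bases. All 4 CRE core sites of Nr4a1 are part of the longer motif TGCGTCA, which overlaps them and was searched on both strands after the sequence had been seen. That motif was found in 1.75% of promoters, and 1 promoter of the 32851, that of Nr4a1, held 4 of it. The promoters of Nr4a2 and Nr4a3 held 0. The full site TGACGTCA, present in 1.55% of promoters, was in none of the 3 windows. The same held for AAAGGTCA, the site that Nr4a monomers bind, present in 1.34% of promoters and also searched on both strands.

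The arrays gave 1 whole-number signal per probe set, scaled so that the mean of each array without its lowest and highest 2% was 150.0. Median signals lay between 33 and 40 per array. The islet hormone genes were bright everywhere, Ins2 at 2680 to 4873 and Sst at 7717 to 10282, and none of the islet, exocrine, mesenchymal, endothelial, myeloid, lymphocyte or heat shock markers examined had a signal of 0 on any array. Of 45037 probe sets, the 27022 whose mean log2(signal + 1) over the 6 arrays corresponded to a signal of at least 23.3 were tested with limma. Differences are given on the scale of log2(signal + 1), with the moderated standard error (SE). Adjusted p-values are Benjamini-Hochberg values over all 27022 probe sets, with a threshold of 0.05, and 0 probe sets passed in any comparison.

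Nr4a1 was lower on every bisphenol-A array than on either vehicle array, without passing the test. This gene, also known as Nur77, encodes the member most studied in beta cells. Its signal was 192 and 334 on the vehicle arrays, 125 and 64 on the BPA10 arrays, and 95 and 94 on the BPA100 arrays. The groups at each dose did not overlap with vehicle, and the single-mouse vehicle array was the highest of the 6. Such separation was common. Of all tested probe sets, 18.6% lay below vehicle without overlap in BPA10 islets and 15.8% in BPA100 islets. For both doses together the share was 7.33%. On the log2 scale Nr4a1 averaged 6.50 ± 0.68 in BPA10 islets against 7.99 ± 0.56 in vehicle islets (SD, n = 2 each). It averaged 6.58 ± 0.01 in BPA100 islets against the same vehicle value (SD, n = 2).

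In BPA10 islets Nr4a1 differed from vehicle by -1.49 ± 0.35 (SE), a level 2.81-fold lower, with a 95% interval of -2.29 to -0.69. The limma adjusted p was 0.471, so the difference did not pass. In BPA100 islets it differed by -1.41 ± 0.35, a level 2.66-fold lower, with an interval of -2.21 to -0.62 (limma adjusted p = 1). The mean of both doses differed by -1.45 ± 0.30 (limma adjusted p = 0.598). These comparisons share the vehicle arrays and are not independent of each other. The exact permutation test over arrays gave a 2-sided p of 0.333 for each dose and 0.0667 for both doses together, in each case the smallest that these numbers of arrays allow.

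Among the 27022 probe sets, 0.355% lay as far below vehicle as Nr4a1 in BPA10 islets, 0.181% in BPA100 islets and 0.0555% for the mean of both doses. By limma p-value Nr4a1 ranked 139, 85 and 53 in those comparisons. BPA100 and BPA10 islets differed in Nr4a1 by 0.08 ± 0.35, with an interval of -0.72 to 0.88 (adjusted p = 0.995). Vehicle was therefore highest, and the 2 doses were not ordered. Their arrays overlapped, and their mean signal was 94.5 in both.

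**Figure D1:**
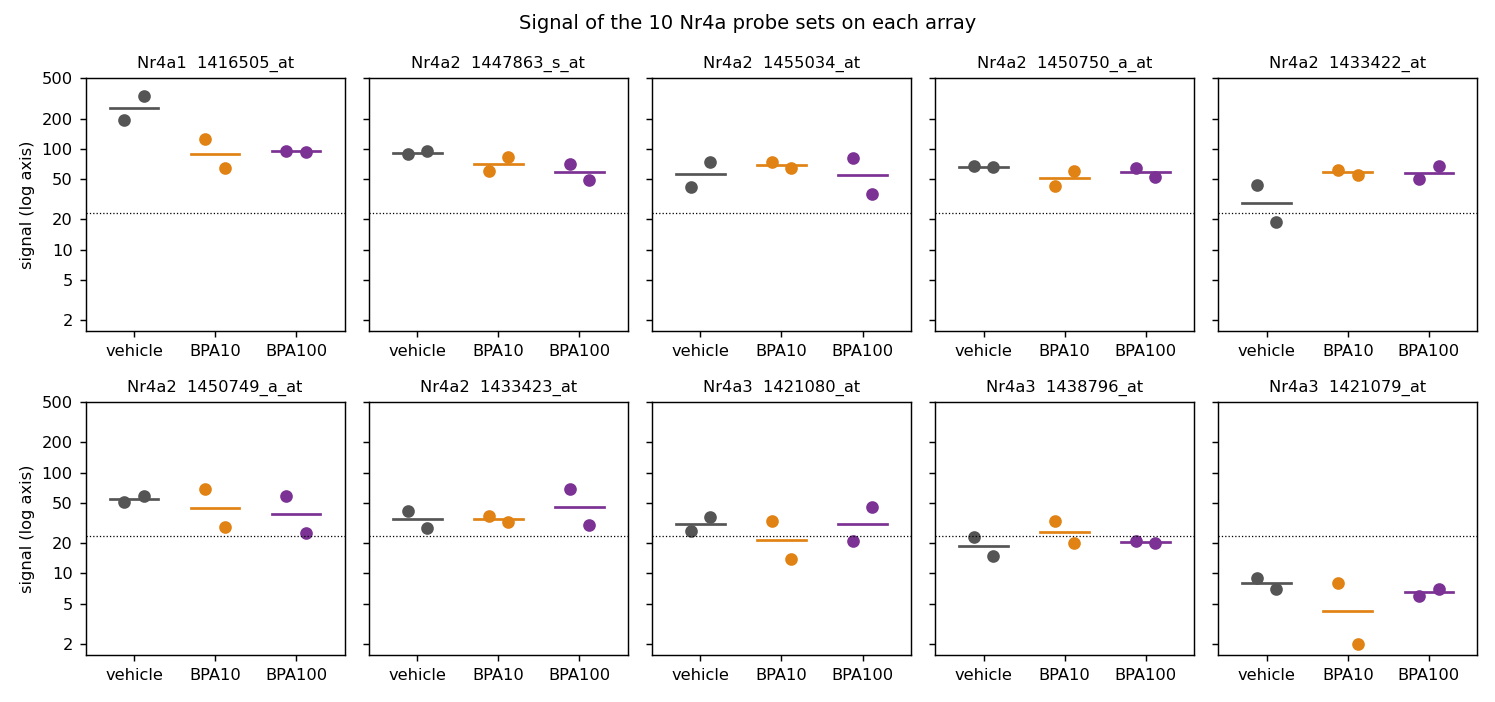
Signal of each of the 10 Nr4a probe sets on the 6 arrays (vertical axis, log scale) by group (horizontal axis). Points are arrays, replicate 1 left of replicate 2, bars are group means of log2(signal + 1) turned back to signal, and the dotted line is the brightness filter at 23.3. Nr4a1 has both vehicle arrays, 192 and 334, above all 4 bisphenol-A arrays, 64 to 125.

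Nr4a2, also known as Nurr1, gave no single pattern over its 6 probe sets. In BPA10 islets 3 of them were above vehicle and 3 below, and in BPA100 islets 2 were above and 4 below. The mean of their log2 values was 5.77 and 5.66 on the vehicle arrays, 5.83 and 5.68 on the BPA10 arrays, and 6.05 and 5.39 on the BPA100 arrays. The BPA100 arrays thus enclosed the 4 others. With that mean in place of single probe sets, Nr4a2 differed from vehicle by 0.04 in BPA10 and by 0.00306 in BPA100 islets.

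The brightest Nr4a2 probe set, 1447863_s_at, measured 89 and 95 on the vehicle arrays, 60 and 83 on the BPA10 arrays, and 71 and 49 on the BPA100 arrays. Both bisphenol-A groups lay below both vehicle arrays and overlapped each other. It differed from vehicle by -0.38 ± 0.27 in BPA10 islets (SE, limma adjusted p = 0.826). In BPA100 islets it differed by -0.63 ± 0.27 (interval -1.26 to -0.01, limma adjusted p = 1). The suffix of its name marks a probe set whose probes can also match transcripts of other genes.

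Probe set 1433422_at of Nr4a2 went the other way. It measured 44 and 19 on the vehicle arrays, 62 and 55 on the BPA10 arrays, and 50 and 67 on the BPA100 arrays, so that both bisphenol-A groups lay above both vehicle arrays. The differences were 0.99 ± 0.40 in BPA10 (limma adjusted p = 0.686) and 0.97 ± 0.40 in BPA100 islets (limma adjusted p = 1). Vehicle replicate 2, at 19, was the lowest of the 6 arrays, and without it the differences were 0.40 in BPA10 and 0.39 in BPA100 islets. The neighbouring probe set 1433423_at, which the annotation draws from the same source sequence, measured 42 and 28 on the vehicle arrays, 37 and 32 on the BPA10 arrays, and 68 and 30 on the BPA100 arrays. Its groups overlapped, with differences of 0.00 ± 0.43 in BPA10 and 0.39 ± 0.43 in BPA100 islets.

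The other 3 probe sets of Nr4a2 differed from vehicle by -0.38, -0.30 and 0.30 in BPA10 islets and by -0.18, -0.50 and -0.04 in BPA100 islets. Of these, 1450750_a_at had the tightest vehicle pair of the family, 67 and 66, with 43 and 60 on the BPA10 and 65 and 53 on the BPA100 arrays. Its 4 bisphenol-A arrays all lay below both vehicle arrays, and the limma adjusted p was 0.822 for BPA10 and 1 for BPA100. Probe set 1450749_a_at had one array near or above vehicle and one well below it in each dose group, with 51 and 59 in vehicle, 68 and 29 in BPA10 and 59 and 25 in BPA100 islets.

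Nr4a3, also known as Nor1, was at the lower edge of what the arrays resolve. Only 1 of its 3 probe sets, 1421080_at, passed the brightness filter, at a mean log2 value of 4.83. It measured 26 and 36 on the vehicle arrays, 33 and 14 on the BPA10 arrays, and 21 and 46 on the BPA100 arrays. The groups overlapped, and the SD inside each dose group, 0.83 for BPA10 and 0.77 for BPA100, was larger than any difference between groups. The differences from vehicle were -0.48 ± 0.53 in BPA10 (interval -1.69 to 0.72, limma adjusted p = 0.884) and 0.02 ± 0.53 in BPA100 islets (interval -1.18 to 1.23, adjusted p = 1).

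The 2 probe sets of Nr4a3 below the filter were not tested. Probe set 1438796_at measured 23 and 15 on the vehicle arrays, 33 and 20 on the BPA10 arrays, and 21 and 20 on the BPA100 arrays. Probe set 1421079_at measured 9 and 7, 8 and 2, and 6 and 7 in the same order, signals at which the pseudocount of 1 weighs on any log value. For both, all 3 groups overlapped.

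Over the 8 tested probe sets of the family, 0 passed after adjustment, against 0% of all probe sets. At an unadjusted limma p under 0.05, BPA10 islets had 1 lower (Nr4a1), against a background of 3.96% of all probe sets, and 1 higher (1433422_at of Nr4a2), against 3.12%. BPA100 islets had 2 lower (Nr4a1 and 1447863_s_at), against 1.87%, and 1 higher (1433422_at), against 2.11%. In the alternatives, the unadjusted p stayed under 0.05 in 18 of 18 for Nr4a1 at each dose, in 9 of 16 for 1433422_at at each dose and in 8 of 18 for the brightest Nr4a2 probe set in BPA100 islets. These alternatives are not independent checks. Many leave the Nr4a1 difference as it was and change only the spread estimate. With 1 probe set, the mean of the probe sets repeats its value, and some alternatives leave 1 array in a group. Groups did not overlap for 3 lower and 1 higher probe set in each comparison with vehicle. The background for this was 18.6% lower and 17.5% higher for BPA10, and 15.8% lower and 16.1% higher for BPA100. Between BPA100 and BPA10, 0 of the 8 had an unadjusted p under 0.05 or groups without overlap, against 4.75% and 30.7% of all probe sets. For the mean of both doses, 1 was lower and 1 higher at an unadjusted p under 0.05 (background 2.99% and 2.7%), and 3 lower and 1 higher did not overlap (7.33% and 7.17%).

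**Figure D2:**
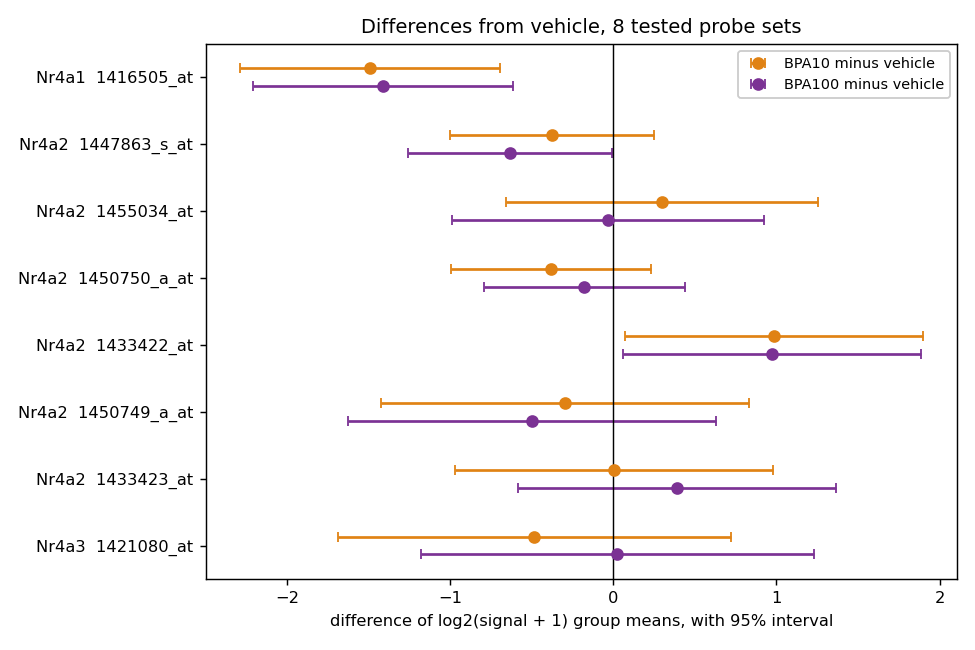
Differences from vehicle in log2(signal + 1) for the 8 tested Nr4a probe sets (horizontal axis), with limma's 95% intervals, for BPA10 (upper point) and BPA100 (lower point). The Nr4a1 intervals, -2.29 to -0.69 and -2.21 to -0.62, lie below 0, those of 1433422_at lie above 0, and the other intervals include 0 except that of 1447863_s_at in BPA100, which ends at -0.01.

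The genes whose pattern over the 6 arrays was most like a member were found by the root mean square difference between mean-centred log2 values. For Nr4a1 they were Rhbdd3 at 0.265, Cbs at 0.269, Zfp318 at 0.271, Trps1 at 0.301 and Trpm7 at 0.319, where the median over 22385 probe sets compared was 0.800. Cbs encodes the first enzyme of transsulfuration, Trps1 a transcriptional repressor and Trpm7 a channel with a kinase domain. Each was dim, the 5 probe sets lying between 14 and 123, and the other probe sets of these genes differed from vehicle by less, between -0.61 and 0.47 for the mean of both doses, against -1.29 to -0.90 for the probe sets listed. By the same measure Nr4a2 stood at 0.669 from Nr4a1 and Nr4a3 at 0.692, each by its brightest probe set.

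For the brightest Nr4a2 probe set the most similar genes were Ak5, Haus2, Rabif, Emc7 and Kpna6, at 0.0735 to 0.110 where the median was 0.396. For Nr4a3 they were Ints6l, Strip2, Maco1, Eif4h and Btf3, at 0.142 to 0.180 where the median was 0.572. Apart from Haus2, at 86 to 143, these probe sets had signals between 14 and 69.

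Immediate-early genes, which answer the same rapid stimuli as the Nr4a genes, were compared next. Of 28 tested genes of this list, the Nr4a genes left out, 19 were below vehicle in BPA10 islets and 24 in BPA100 islets, where 46.9% and 50.1% of all 13193 tested genes were. The median difference was -0.13 in BPA10 and -0.24 in BPA100 islets, against 0.02 and -0.00058 over all genes, and with only the arrays of 1 mouse the BPA10 median was 0.14. Without BPA10 replicate 2 it was 0.04, and without replicate 1 it was -0.30. At an unadjusted p under 0.05, 2 genes were lower in BPA10 (background 2.3%) and 4 in BPA100 islets (1.78%), and 0 were higher in either (3.71% and 2.35%).

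The AP-1 gene Junb followed Nr4a1 more closely than Fos or Egr1 did. Junb measured 77 and 60 on the vehicle arrays, 47 and 27 on the BPA10 arrays, and 20 and 24 on the BPA100 arrays. It differed by -0.91 ± 0.36 in BPA10 and by -1.59 ± 0.36 in BPA100 islets (limma adjusted p = 0.686 and 0.922). As with Nr4a1 and with 7.33% of all tested probe sets, all 4 bisphenol-A arrays were below both vehicle arrays.

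Fos, the partner of Jun proteins in AP-1, had signals of 2349 and 841 in vehicle, 2165 and 183 in BPA10, and 165 and 168 in BPA100 islets. The zinc finger factor gene Egr1 had 988 and 521 in vehicle, 1222 and 189 in BPA10, and 173 and 211 in BPA100 islets. On BPA10 replicate 1 both were within or above the vehicle range, while Nr4a1 on that array, at 125, was below it. The BPA10 difference was -1.16 ± 0.95 for Fos and -0.58 ± 0.71 for Egr1, and without BPA10 replicate 2 it was 0.62 and 0.77. The BPA100 difference was -3.07 ± 0.95 for Fos and -1.90 ± 0.71 for Egr1 (limma adjusted p = 1 for both). The distance from the Nr4a1 pattern was 0.472 for Junb, 0.918 for Egr1 and 1.32 for Fos. Values were not scaled for it, so a larger swing alone adds distance. Fos ran from 165 to 2349, and Nr4a1 from 64 to 334.

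The other genes of this list with an unadjusted p under 0.05 in a comparison were signalling regulators. Gadd45g, a stress-response gene, differed by -0.32 in BPA10 and -0.75 in BPA100 islets, and Socs3, an inhibitor of cytokine signalling, by -0.65 and -0.49. The other Socs3 probe sets lay at -0.52 and -0.27 in BPA10 and at -1.72 and -0.73 in BPA100 islets. None of these passed after adjustment. The heat shock genes Hspa1b and Dnajb1, signs of handling, were named because they lay below vehicle. They were lower on all 4 bisphenol-A arrays than on both vehicle arrays. The same held for 7.33% of all tested probe sets. Of the 18 heat shock genes tested, 8 were below vehicle in BPA10 and 10 in BPA100 islets, and 10 and 8 were above it. The part of handling in these differences was not tested.

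**Figure D3:**
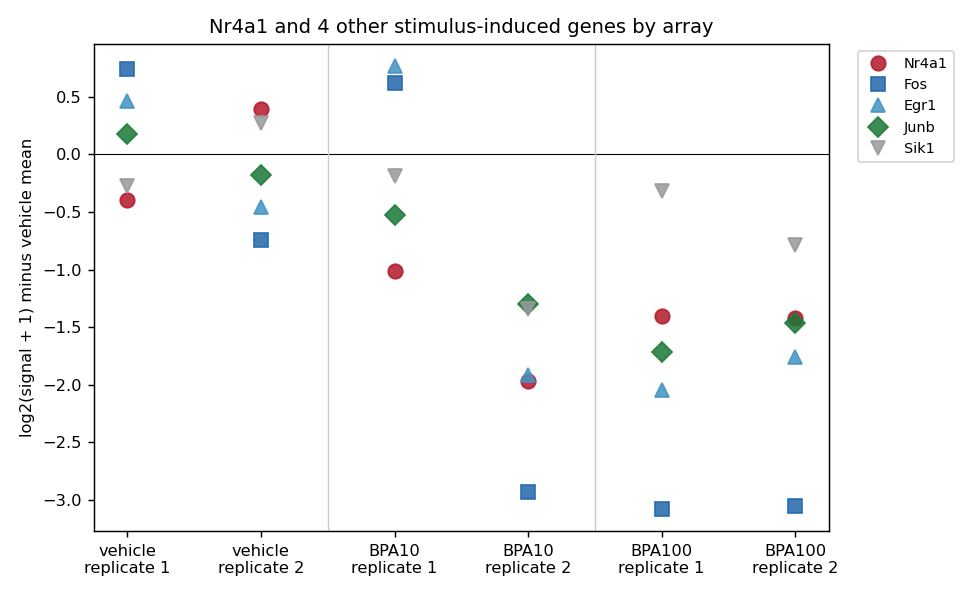
log2(signal + 1) minus the vehicle mean (vertical axis) of Nr4a1, Fos, Egr1, Junb and the CREB target Sik1 on each of the 6 arrays (horizontal axis). On BPA10 replicate 1, Fos and Egr1 sit above 0 and Nr4a1 at -1.01, and on both BPA100 arrays every gene sits below 0.

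Other CREB-responsive genes were divided. Of 19 tested, 9 were below vehicle in BPA10 and 12 in BPA100 islets, where 46.9% and 50.1% of all genes were. The medians were 0.03 and -0.10. Leaving out 1 array moved the BPA10 median between -0.11 and 0.04 and the BPA100 median between -0.34 and 0.22, the last without BPA100 replicate 2, so neither sign held. Sik1, a kinase that dampens CREB signalling, measured 62 and 91 on the vehicle arrays, 66 and 29 on the BPA10 arrays, and 60 and 43 on the BPA100 arrays. It differed by -0.76 ± 0.41 in BPA10 and -0.56 ± 0.41 in BPA100 islets, at a distance of 0.410 from Nr4a1, and its second probe set by -1.61 and -1.30. Without BPA10 replicate 2 the BPA10 difference was -0.18, and without replicate 1 it was -1.34. The BPA100 difference was -0.28 without vehicle replicate 2 and -0.83 without vehicle replicate 1. The clock gene Per1 differed by -0.36 and -0.43, and the CREB family gene Crem by 0.03 and 0.15, with other probe sets of Crem from -0.61 to 0.45 and from -0.47 to 0.60.

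In the opposite direction, the repressor gene Nfil3 measured 136 and 119 on the vehicle arrays, 169 and 210 on the BPA10 arrays, and 220 and 240 on the BPA100 arrays. Its differences were 0.56 ± 0.18 in BPA10 and 0.85 ± 0.18 in BPA100 islets (limma adjusted p = 0.645 and 0.908). The other genes of this list with an unadjusted p under 0.05 were also higher, Chga (0.33) in BPA10 and Pde4d (0.47) in BPA100 islets. That made 2 higher genes of 19 in each comparison, against 3.71% of all genes in BPA10 and 2.35% in BPA100 islets. The second Pde4d probe set was at -0.25 in BPA100 islets, on the other side of vehicle. Chga, a secretory granule protein gene, was at -0.05 in BPA10 islets after quantile normalization.

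Genes that carry cyclic AMP and calcium signals to the Nr4a promoters had medians near that of all genes. Of 34 tested, 16 were below vehicle in BPA10 and 14 in BPA100 islets, where 46.9% and 50.1% of all genes were. The medians were 0.02 and 0.06. The histone deacetylase gene Hdac9, whose protein represses MEF2, measured 111 and 62 on the vehicle arrays, 119 and 123 on the BPA10 arrays, and 178 and 137 on the BPA100 arrays. It differed by 0.54 ± 0.29 in BPA10 and 0.90 ± 0.29 in BPA100 islets. It was the one gene of the list with an unadjusted p under 0.05 in either comparison (limma adjusted p = 1, in BPA100). That made 1 higher gene of 34 in BPA100 islets, near the 2.35% of all genes.

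Partner genes gave no adjusted call either. The retinoid X receptor gene Rxra differed by -0.24 in BPA10 and -0.41 in BPA100 islets, but its other probe sets gave 0.37 and 0.91 in BPA10 and -0.19 and 0.24 in BPA100 islets. Rxrb differed by -0.09 and -0.33, and Rxrg lay below the brightness filter. Of 21 partners and coregulators tested, 13 were below vehicle in BPA10 and 9 in BPA100 islets, where 46.9% and 50.1% of all genes were. At an unadjusted p under 0.05, 1 was higher in each comparison, near the 3.71% and 2.35% of all genes. That gene was Hif1a, the hypoxia factor, at 0.32 in BPA10 and 0.33 in BPA100 islets, with other probe sets from -0.28 to 0.56 and from -0.13 to 0.72.

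Genes reported downstream of Nr4a receptors in beta cells lay on both sides of vehicle. Of 27 tested, 11 were below vehicle in BPA10 and 13 in BPA100 islets, where 46.9% and 50.1% of all genes were. The medians were 0.05 and 0.03. Nkx6-1, placed above Nr4a1 in that pathway, measured 930 and 897 on the vehicle arrays, 770 and 1106 on the BPA10 arrays, and 1060 and 879 on the BPA100 arrays. The groups overlapped, with differences of 0.01 ± 0.19 in BPA10 and 0.08 ± 0.19 in BPA100 islets.

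The cell cycle genes E2f1, Ccne1 and Cdkn1a of the pathway did not pass the test. E2f1 differed by -0.35 ± 0.21 in BPA10 and -0.09 ± 0.21 in BPA100 islets, with other probe sets from -0.16 to 1.46 in BPA100. Ccne1, the cyclin E1 gene, differed by -0.36 ± 0.41 and -0.05 ± 0.41. Cdkn1a, the inhibitor p21, differed by 0.09 and 0.25, with a second probe set at -1.04 and -0.04. The respiration genes Idh3g and Sdhb differed by 0.05 and -0.02 in BPA10 and by -0.11 and -0.21 in BPA100 islets, and the second Idh3g probe set by -0.26 and -0.04.

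The anaphase-promoting complex part of that list held the value farthest from 0. Cdc20, the activator of the complex, measured 136 and 97 on the vehicle arrays, 332 and 377 on the BPA10 arrays, and 250 and 276 on the BPA100 arrays. It differed by 1.61 ± 0.20 in BPA10 and 1.19 ± 0.20 in BPA100 islets, and its other 2 probe sets by less, 1.04 to 1.10 in BPA10 and 0.65 to 0.71 in BPA100 islets. Ube2c, its ubiquitin-conjugating enzyme, was at 1.61 ± 0.20 in BPA10 and 1.08 ± 0.20 in BPA100 islets. The subunit gene Cdc27 differed by 0.32 and 0.22, and its other probe sets ran from -0.02 to 0.42 in BPA10 and from -0.53 to 0.32 in BPA100 islets. With Pdx1 (0.37, a second probe set at 0.17) and Ins2 (0.45) these made 5 higher genes at an unadjusted p under 0.05 in BPA10 islets, where 3.71% of all genes were, and 2 in BPA100 islets, where 2.35% were. None of them passed after adjustment (limma adjusted p of 0.194 or more).

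Of 19 tested targets reported in other tissues, 6 were below vehicle in BPA10 and 7 in BPA100 islets, where 46.9% and 50.1% of all genes were. The median was 0.09 in each comparison. At an unadjusted p under 0.05, 1 gene was higher in BPA10 islets, where 3.71% of all genes were, and 0 in BPA100 islets, where 2.35% were. The BPA10 gene was Birc5, the survivin gene, at 0.90 ± 0.22 in BPA10 and 0.48 ± 0.22 in BPA100 islets (limma adjusted p = 0.476 and 1).

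**Figure D4:**
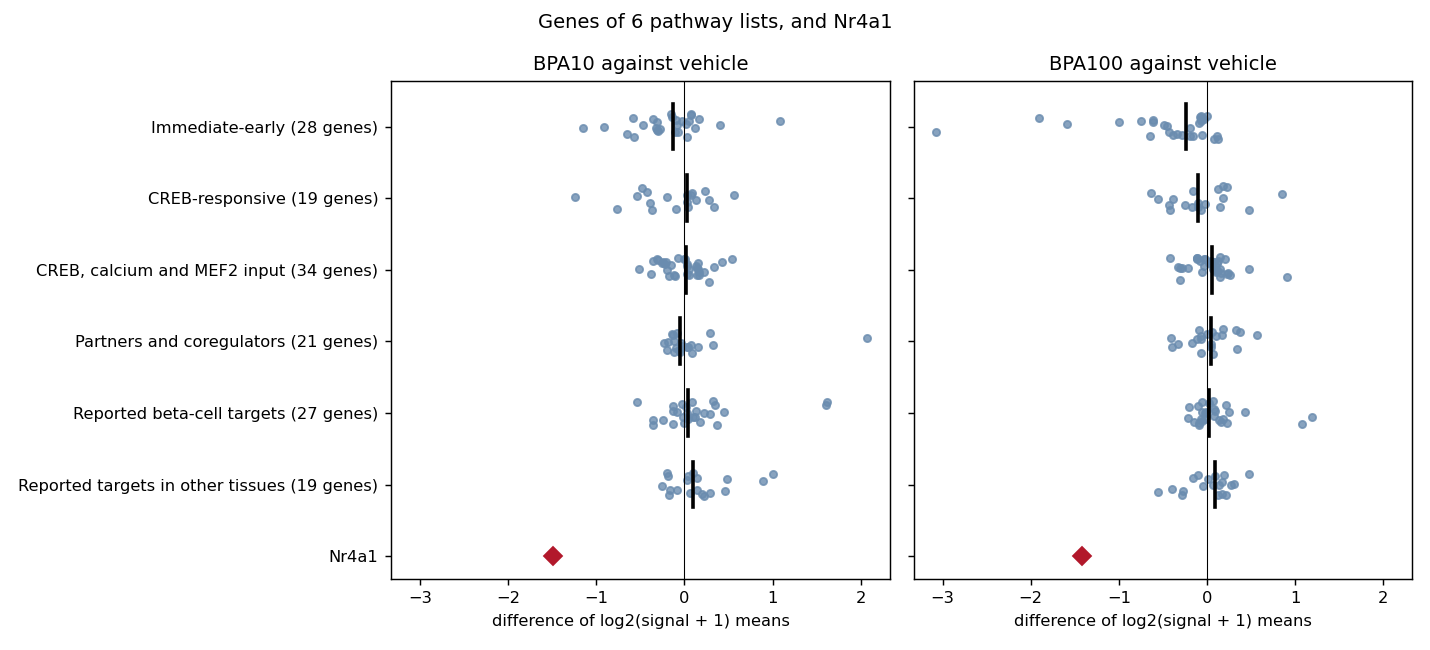
Differences from vehicle in log2(signal + 1) (horizontal axis) of the tested genes of 6 lists around the Nr4a receptors, left for BPA10 and right for BPA100. Points are genes, black bars are list medians and the diamond is Nr4a1, at -1.49 and -1.41. The immediate-early list has the lowest medians, -0.13 and -0.24.

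Markers of islet cells, of other cell types and of handling also differed between the arrays. In whole islets, fewer cells of a type and less RNA per cell cannot be told apart. Islet endocrine markers (20 tested of 20 on the array) averaged -0.08 and 0.08 in vehicle, 0.14 and 0.19 in BPA10 and 0.16 and 0.05 in BPA100 islets, relative to the vehicle mean. Of the 20, 3 were below vehicle in BPA10 and 5 in BPA100 islets, where 46.9% and 50.1% of all genes were. At an unadjusted p under 0.05, 6 were higher in BPA10 and 1 in BPA100 islets, against 3.71% and 2.35%. Relative to the vehicle mean, acinar markers (23 tested of 23 on the array), from the enzyme-secreting exocrine tissue, averaged 0.58 and -0.58 in vehicle, 1.24 and 1.01 in BPA10 and 1.02 and 0.01 in BPA100 islets. Their summed signal ranged from 77011 to 146356 in vehicle, from 183914 to 204710 in BPA10 and from 106938 to 189907 in BPA100 islets. Of the 23, 18 were higher at an unadjusted p under 0.05 in BPA10 and 2 in BPA100 islets, against 3.71% and 2.35% of all genes, and none passed after adjustment.

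Myeloid markers (17 tested of 21) averaged 0.41 and -0.41 in vehicle, 0.31 and -0.16 in BPA10 and -0.51 and -0.39 in BPA100 islets. Their summed signal ranged from 2644 to 5956 in vehicle, from 2975 to 4410 in BPA10 and from 2378 to 3033 in BPA100 islets. Of the 17, 7 were below vehicle in BPA10 and 13 in BPA100 islets, where 46.9% and 50.1% of all genes were. At an unadjusted p under 0.05, 1 was higher in BPA10 islets (3.71% of all genes) and 4 were lower in BPA100 islets (1.78%). Lymphocyte markers (7 tested of 18) averaged 0.27 and -0.27 in vehicle, 0.89 and 0.07 in BPA10 and 0.04 and 0.15 in BPA100 islets. Their summed signal ranged from 493 to 590 in vehicle, from 600 to 1048 in BPA10 and from 543 to 684 in BPA100 islets. Stellate and fibroblast markers (24 tested of 24) averaged 0.19 and -0.19 in vehicle, 0.65 and -0.04 in BPA10 and -0.33 and -0.56 in BPA100 islets. Their summed signal ranged from 13605 to 15628 in vehicle, from 14814 to 22126 in BPA10 and from 11320 to 13271 in BPA100 islets. Of the 24, 5 were below vehicle in BPA10 and 21 in BPA100 islets. At an unadjusted p under 0.05, 4 were higher and 1 lower in BPA10 islets (3.71% and 2.3% of all genes). In BPA100 islets 4 were lower (1.78%). Between BPA100 and BPA10, 12 were lower at that level, against 4.75% of all probe sets in either direction. Duct (10 tested of 12) and endothelial markers (15 tested of 16) stayed between -0.42 and 0.36 on all arrays. The part of these cells in the Nr4a1 difference was not tested.

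Heat shock genes, a sign of handling, averaged 0.01 and -0.01 in vehicle, 0.03 and -0.05 in BPA10 and -0.05 and -0.38 in BPA100 islets. Single genes of the list lay farther from vehicle than its mean, from -0.94 to 0.69 in BPA10 and from -1.85 to 0.53 in BPA100 islets. Those named here were picked as genes below vehicle. The inducible chaperone gene Hspa1b, which cannot be told apart with certainty from its near-identical copy Hspa1a, measured 535 and 595 in vehicle, 368 and 233 in BPA10 and 157 and 155 in BPA100 islets. The cochaperone gene Dnajb1 measured 514 and 493 in vehicle, 261 and 290 in BPA10 and 289 and 334 in BPA100 islets. For both genes all 4 bisphenol-A arrays lay below both vehicle arrays, as for Nr4a1 and for 7.33% of all tested probe sets. Of 18 genes tested, 8 were below vehicle in BPA10 and 10 in BPA100 islets, where 46.9% and 50.1% of all genes were. Hspa1b differed by -0.94 in BPA10 and -1.85 in BPA100 islets (limma adjusted p = 0.462 and 0.200), and Dnajb1 by -0.87 and -0.69 (0.315 and 0.908). Of the 18 heat shock genes, 3 were lower and 2 higher in BPA10, and 3 lower and 1 higher in BPA100 islets, at an unadjusted p under 0.05. Over all genes, 2.3% were lower and 3.71% higher in BPA10, and 1.78% lower and 2.35% higher in BPA100 islets. The part of handling in the Nr4a1 difference was not tested.

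The actin control had a 3′ over 5′ ratio of 1.72 and 1.62 in vehicle and 1.63 and 1.71 in BPA10 islets. In BPA100 islets it was 1.68 and 1.70. The groups overlapped for actin and for pyruvate carboxylase, whose ratios ran from 4.90 to 7.86. For Gapdh the ratio was 0.77 and 0.657 in vehicle, 0.841 and 0.887 in BPA10 and 0.771 and 0.689 in BPA100 islets. BPA10 thus lay above vehicle, and BPA100 overlapped it. The transferrin receptor ratio was 26.0 and 4.33 in vehicle, 3.0 and 3.1 in BPA10 and 3.06 and 1.54 in BPA100 islets. Every bisphenol-A array lay below both vehicle arrays there, at 5′ signals of 1 to 16. The 5′ control probe set of 18S ribosomal RNA measured 754 and 921 in vehicle, 1094 and 1267 in BPA10 and 1363 and 1352 in BPA100 islets, and the bisphenol-A groups did not overlap with vehicle. The part of what these controls measure in the Nr4a1 difference was not tested.

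**Figure D5:**
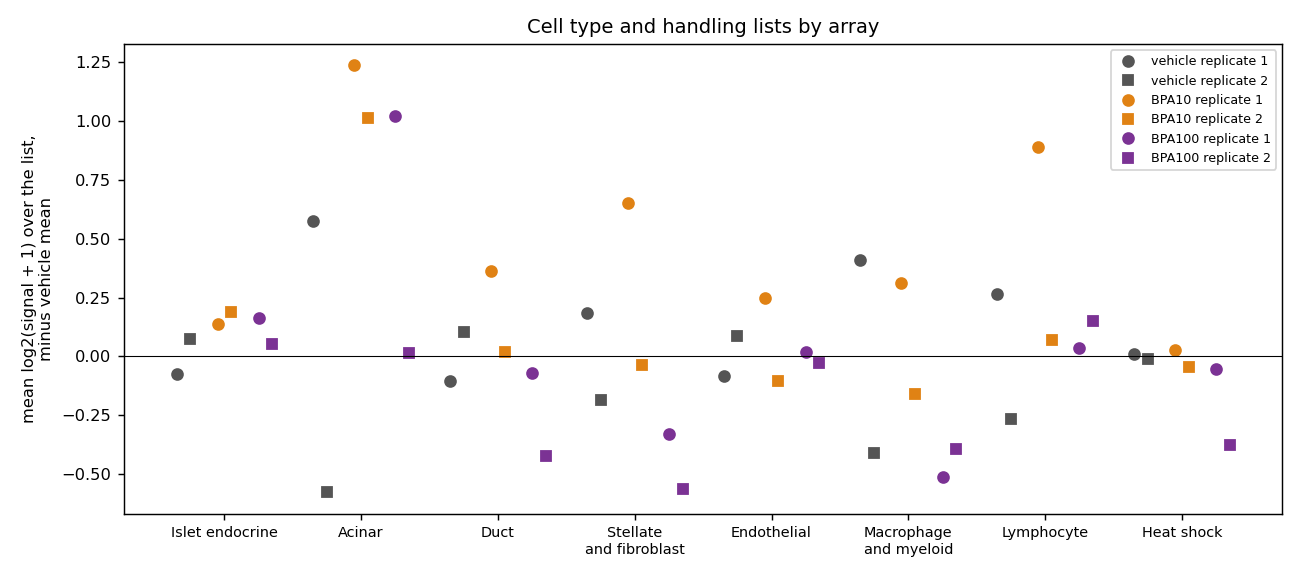
Mean log2(signal + 1) over each cell type or handling list minus its vehicle mean (vertical axis), for the 6 arrays (points, circles for replicate 1 and squares for replicate 2). Acinar markers spread widest, from -0.58 on vehicle replicate 2 to 1.24 on BPA10 replicate 1, and the heat shock mean is lowest on BPA100 replicate 2, at -0.38.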

How the data were processed

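RNA of 6 islet preparations was measured on Affymetrix arrays. The deposited intensities are linear, whole-number signals, and the submitters' processing notes name MAS5. The version is not given in the sources used here, detection calls were not used, and the scaling to a mean of 150.0 was read from the values. Log2 values were taken here from the deposited signals, with a pseudocount of 1 and no further normalization. Probe sets at or above the 40th percentile of mean log2 value were kept.

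limma 3.58.1 in R 4.3.3 (lmFit, eBayes with an intensity trend) was fitted to all 6 arrays with 3 group means, leaving 3 residual degrees of freedom beside 5.4 prior ones. The number of arrays limits the precision, with a median SE of 0.24 for 2 arrays against 2. The fit was tested on simulated data.

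Of 349 list entries 320 were found on the array, and the others, Ins1 among them, were not analysed here. A gene's value is that of its tested probe set with the highest mean. Named genes are the members, 17 pathway genes named in the rule, the 3 genes of each of 6 lists with the smallest p in each comparison with vehicle, and the 5 most similar genes per member. Sst is named outside this rule as an islet marker, and Hspa1b and Dnajb1 as heat shock genes below vehicle. The similar-gene search covered named, non-predicted genes. Of the list genes, those with an unadjusted p under 0.05 are written about. The members and lists were chosen with earlier results of these data known. Sequences are from RefSeq, GRCm38.p6. Promoter counts cover the 250 bases before each start.

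Same-numbered arrays of different groups had deviations from their group means that correlated at 0.08, 0.19 and 0.20 across probe sets, so the numbers were not taken to pair the arrays. The alternatives tried were other normalizations, pseudocounts, filters and spread estimates, array weights, a replicate block, only arrays of 1 mouse, and leaving out each array.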

Additional observations from a re-analysis of the deposited data

How the results depend on the processing

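With vehicle replicate 1 left out, 9 probe sets passed for BPA10, 5 for BPA100, 7 for both doses and 5 for the 3 groups; leaving out each array gave 0 to 9, 0 to 5, 0 to 7 and 0 to 5, and 0 to 1 for BPA100 against BPA10, where BPA10 replicate 2 left out gave the 1. Fits on only the groups compared passed 1 for BPA10 and 4 for BPA100. Median centring passed 6 for BPA100 and 1 for both doses. The replicate block, whose numbers were not taken to pair the arrays, passed 7 for BPA100, 1 for both doses and 2 for the 3 groups. The causes were not tested. Nr4a1 kept its sign in all alternatives against vehicle, from -1.97 to -1.01 for BPA10 and from -1.81 to -1.02 for BPA100, without passing in any. Leaving out an array could not turn the sign, because no bisphenol-A array overlapped with vehicle.

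These values turned sign. With only arrays of 1 mouse, BPA100 against BPA10 was -0.40 for Nr4a1 and -0.0805 for Nr4a3, Nr4a3 was -0.20 in BPA100, 1455034_at was -0.22 for both doses and 1450749_a_at was 0.20 in BPA10. In that setting BPA10 gave Fos 1.36, Egr1 1.23, Rxra 0.12, Socs3 0.0391, Rxrb 0.0365, Idh3g -0.0508 and Nkx6-1 -0.22. The mean of the probe sets gave Nr4a2 0.0388 for BPA10, 0.00306 for BPA100 and 0.0209 for both doses. Quantile normalization gave 0.00800 for 1455034_at in BPA100, 0.0124 for 1433422_at between the doses, and Chga -0.0475 in BPA10 and -0.00746 in BPA100. Median centring gave 0.00118 and 0.000681 for those 2 probe sets and Sdhb 0.00668 in BPA10. A pseudocount of 16 gave -0.00226 for 1433423_at in BPA10.

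Leaving out each array gave, for BPA10 against vehicle, 1455034_at -0.10 to 0.70, 1450749_a_at -0.90 to 0.30, 1433423_at -0.28 to 0.29, Nr4a3 -1.08 to 0.11, Idh3g -0.00231 to 0.0947, Rxrb -0.27 to 0.0929. It gave, for BPA10 against vehicle, Egr1 -1.92 to 0.77, Sdhb -0.0600 to 0.0265, Fos -2.93 to 0.62, Cdkn1a -0.25 to 0.44, Nkx6-1 -0.25 to 0.28, Crem -0.11 to 0.16. It gave, for BPA10 against vehicle, Rxra -0.58 to 0.11. It gave, for BPA100 against vehicle, 1455034_at -0.62 to 0.55, 1450749_a_at -1.10 to 0.10, 1433423_at -0.19 to 0.97, Nr4a3 -0.52 to 0.57, Ccne1 -0.57 to 0.46, Pdx1 -0.15 to 0.0203. It gave, for BPA100 against vehicle, Ins2 -0.41 to 0.22, Cdkn1a -0.0901 to 0.60, Nkx6-1 -0.0552 to 0.21, E2f1 -0.25 to 0.0625, Crem -0.34 to 0.64. It gave, for BPA100 against BPA10, Nr4a1 -0.40 to 0.56, Nr4a2 -0.52 to 0.0084, 1455034_at -0.92 to 0.25, 1450750_a_at -0.0311 to 0.44, 1433422_at -0.22 to 0.20, 1450749_a_at -0.81 to 0.40. It gave, for BPA100 against BPA10, 1433423_at -0.19 to 0.96, Nr4a3 -0.0805 to 1.10. It gave, for both doses against vehicle, 1455034_at -0.27 to 0.53, 1433423_at -0.0919 to 0.49, Nr4a3 -0.53 to 0.0651. List medians for BPA100 turned sign without 1 array for the signal input (-0.00378 to 0.0719), partner (-0.0711 to 0.0775), beta-cell target (-0.0308 to 0.10) and heat shock lists (-0.23 to 0.13), and for BPA10 for the signal input (-0.00709 to 0.0399), partner (-0.0806 to 0.0364) and heat shock lists (-0.00294 to 0.0840). A filter at the 60th percentile left no value for the dimmer probe sets, nor did the mean of the Nr4a3 probe sets. Signals near the filter limit Nr4a3.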
